A study of Mus musculus with 6 samples.

Results

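miR-223 and the 2 strands of the miR-142 hairpin, miR-142-3p and miR-142-5p, are miRNAs of blood-forming cells. They were chosen by name, and each matched 1 assay among the 596 miRNA assays of a TaqMan RT-PCR panel, so 3 of 596 assays are described. The panel was run on bone marrow-derived macrophages of male mice, 6 to 8 weeks old, grown for 7 days with L929-conditioned medium, a source of macrophage colony-stimulating factor. The Dicer KO group held 3 mice of genotype LysM-Cre/Dicerflox/flox/Apoe-/-, and the Dicer WT group 3 mice of genotype LysM-Cre/Dicerwt/wt/Apoe-/-. Cre expressed from the LysM promoter, that of the myeloid lysozyme gene, was present in both groups, and both lacked Apoe, the apolipoprotein whose loss raises plasma cholesterol. Dicer mRNA was not among the assays; the extent of deletion was therefore not measured, and a floxed allele can remain in part of the cells. The comparison asked how far these miRNAs depended on Dicer.

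A miRNA is transcribed as part of a longer RNA, trimmed to a hairpin, and cut by Dicer into a short duplex. A strand of the duplex then enters an Argonaute protein and finds its target mRNAs mainly through the seed, bases 2 to 8 from its 5′ end. miR-223 is a myeloid miRNA, known for restraining granulocyte production and for repressing Mef2c and the inflammasome sensor Nlrp3. miR-142 is expressed throughout the haematopoietic system, and both of its strands are known to be loaded and to act in macrophages, dendritic cells and lymphocytes.

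The mature sequences (RefSeq, GRCm38.p6) are shown because the assays read these strands and because the seeds set the targets; the seed is in capitals.
miR-223: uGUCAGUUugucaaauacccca
miR-142-3p: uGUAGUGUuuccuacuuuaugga
miR-142-5p: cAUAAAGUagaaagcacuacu
The 3 seeds differ from each other, and none of them was shared by another of the 1738 mature mouse miRNAs that RefSeq lists (0 matches). miR-223 lies at chrX:96242884-96242905 on the plus strand, miR-142-3p at chr11:87756903-87756925 and miR-142-5p at chr11:87756867-87756887, both on the plus strand.

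The hairpins from which Dicer cuts these strands are given next, with both mature arms in capitals, the 5p arm first.
Mir223: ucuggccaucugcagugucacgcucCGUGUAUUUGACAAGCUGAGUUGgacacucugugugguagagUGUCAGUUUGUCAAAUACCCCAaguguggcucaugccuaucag
Mir142: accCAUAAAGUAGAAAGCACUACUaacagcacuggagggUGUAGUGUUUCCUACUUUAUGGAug
The Mir223 hairpin (chrX:96242817-96242926, 110 bases, plus strand) lay within the lncRNA gene F630028O10Rik, and the nearest protein-coding gene, Vsig4, was 4275 bp away. Its assay reads the 3p arm, and the panel held no assay of the 5p arm. The Mir142 hairpin (chr11:87756864-87756927, 64 bases, plus strand) overlapped no protein-coding gene; the nearest, Tspoap1, was 1267 bp away, and Mir142b is annotated over it on the minus strand. Folded with RNAfold, 19 of the 21 bases of miR-142-5p paired with the 3p arm, and 15 of the 23 bases of miR-223-5p did. The loop between the arms had 15 bases in Mir142 and 19 in Mir223.

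The deposited values are threshold cycles (Ct), the PCR cycle at which an assay crosses the detection threshold; at full efficiency the Ct falls by 1 for each doubling of template, and 40 stands for no amplification. All 3 assays lay in the first block of rows, called pool A, with 335 miRNA assays and 5 endogenous control RNAs. Abundance is given here as log2 cycles before the mean of these 5 controls in the same sample, so that 1 unit is a doubling. The control mean was at Ct 22.8, 20.3 and 19.3 in KO replicates 1, 2 and 3, against 21.1, 20.6 and 19.1 in WT replicates 1, 2 and 3 (exact permutation p = 0.8, two-sided). KO replicate 1 thus had the latest controls, and each single control differed between the groups, relative to the mean of the 5, by -0.16 to 0.12 in this pool. An exact test of 3 samples against 3 cannot give a p under 0.1. All 3 miRNAs were below Ct 35, the ceiling used for detection, in all 6 samples, so none of the differences is a bound. In bulk RNA, fewer cells of a type and less of the miRNA per cell cannot be told apart.

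miR-223 fell 3.75-fold in KO macrophages. Its Ct was 20.4, 16.9 and 16.9 in KO replicates 1, 2 and 3, against 16.5, 15.3 and 15.0 in WT replicates 1, 2 and 3. Relative to the controls it stood at 2.41, 3.38 and 2.40 in KO and at 4.58, 5.27 and 4.06 in WT. Every KO sample lay below every WT sample, with 0.68 between the highest KO and the lowest WT value, which were KO replicate 2 and WT replicate 3. The means were 2.73 ± 0.57 in KO and 4.64 ± 0.61 in WT (SD, n = 3 each). The difference was -1.91 ± 0.58 on the log2 scale (SE), with 26.6% of the WT level left and a 95% interval of 10.2% to 69.4% (limma across all tested assays, adjusted p = 0.0445). The call was close to the threshold: it was lost on leaving out any 1 sample (limma, adjusted p 0.0611, 0.0605 and 0.0751 without KO replicates 1, 2 and 3, and 0.112, 0.149 and 0.073 without WT replicates 1, 2 and 3), with differences from -2.23 to -1.59. It was also lost with U6 alone as reference (limma, adjusted p = 0.0545) and in the authors' ratios (0.0514).

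miR-142-3p fell by almost the same amount. Its Ct was 23.0, 20.4 and 19.7 in KO replicates 1, 2 and 3, against 19.1, 18.9 and 17.7 in WT replicates 1, 2 and 3. Relative to the controls it stood at -0.11, -0.13 and -0.42 in KO and at 1.92, 1.68 and 1.40 in WT. In every KO sample it was thus just later than the mean control, and in every WT sample earlier, with a gap of 1.51 between the groups. The means were -0.22 ± 0.17 in KO and 1.67 ± 0.26 in WT (SD, n = 3 each), a difference of -1.89 ± 0.47 (SE) or 3.70-fold, with 27.0% of the WT level left (95% interval 12.4% to 58.9%; limma, adjusted p = 0.0321). Among the 200 other assays detected in all 6 samples 7 had a smaller SD than miR-142-3p in KO and 47 in WT, beside 55 and 124 for miR-223 and 20 and 135 for miR-142-5p; the median SD was 0.83 in KO and 0.50 in WT. The call was lost without KO replicate 2 (limma, adjusted p = 0.0634) and without WT replicates 1, 2 or 3 (0.108, 0.112 and 0.0702), with differences from -2.02 to -1.76.

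miR-142-5p was also lower in every KO sample but did not pass the test. Its Ct was 28.8, 26.7 and 26.0 in KO replicates 1, 2 and 3, against 25.2, 25.7 and 24.5 in WT replicates 1, 2 and 3. Relative to the controls it stood at -5.96, -6.39 and -6.65 in KO and at -4.14, -5.15 and -5.39 in WT. The groups were 0.57 apart, and WT replicate 1 stood highest of the 6 samples. The means were -6.33 ± 0.35 in KO and -4.89 ± 0.66 in WT (SD, n = 3 each). The difference was -1.44 ± 0.56 (SE) or 2.71-fold, with 36.9% of the WT level left and a 95% interval of 14.7% to 92.6% (limma, adjusted p = 0.0735, 0.0483 with the replicate block). Without WT replicate 1 the difference was -1.06 (limma, adjusted p = 0.206).

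**Figure D1:**
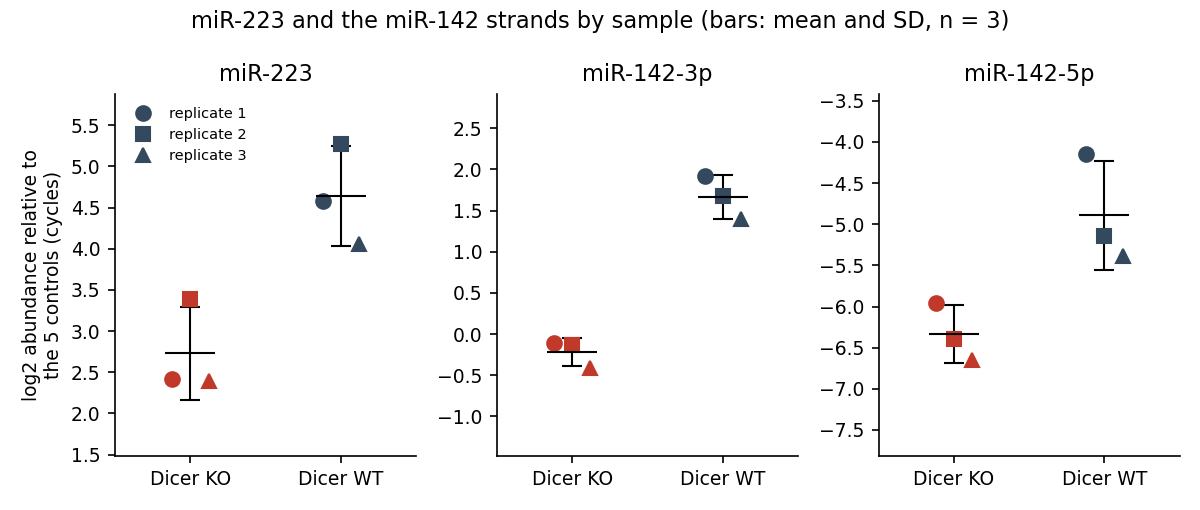
log2 abundance relative to the 5 controls (y axis, cycles) of miR-223, miR-142-3p and miR-142-5p in the 3 KO samples (left, red) and the 3 WT samples (right, dark) of each panel; symbols mark the replicate number and bars the mean and SD. The groups do not overlap in any panel, and the gap is widest for miR-142-3p (1.51) and narrower for miR-223 (0.68) and miR-142-5p (0.57).

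The 2 strands of the miR-142 hairpin were far apart in Ct, and the number of samples was too small to show or exclude a difference between their responses. The 3p strand was 5.84, 6.26 and 6.23 cycles earlier than the 5p strand in KO replicates 1, 2 and 3, against 6.07, 6.83 and 6.78 cycles in WT replicates 1, 2 and 3. These gaps are differences between assays whose efficiencies are not known, so their size is not a ratio of molecules, whereas the change of the gap between groups is free of a constant assay effect. The gap was 6.11 ± 0.23 in KO and 6.56 ± 0.43 in WT (SD, n = 3 each), a change of -0.45 ± 0.28 (SE), and the groups overlapped (exact permutation p = 0.3, two-sided). Single KO and WT samples differed by -0.99 to 0.19. Between samples of the same number the gap changed by -0.22, -0.57 and -0.55, in 1 direction in all 3 (exact sign-flip permutation p = 0.25, two-sided, the smallest that 3 pairs can give). Other hairpins were compared where the strands are named 3p and 5p and both were tested in 1 pool. Pairs in which 1 strand is named with an asterisk, as for miR-322 in pool B, were left out. In 7 of the 12 hairpins compared, the strands' KO minus WT differences were further apart than those of miR-142, and in 5 closer. The median separation was 0.90, and in 5 of the 12 a strand was not detected in every sample. miR-324-3p and miR-324-5p, at -2.98 and -3.03, were the closest, and both fell (limma, adjusted p = 0.034 and 0.0311). Both hairpins named here were chosen after their values were seen: miR-324, and miR-331, of which the 3p strand fell by 2.76 (limma, adjusted p = 0.0312), while the miR-331-5p strand was at -0.0043 (0.996).

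A difference in response between the 2 loci was not detectable. miR-223 was 2.53, 3.52 and 2.81 cycles earlier than miR-142-3p in KO replicates 1, 2 and 3, against 2.66, 3.59 and 2.67 in WT replicates 1, 2 and 3. In both groups replicate 2 had the widest distance between the 2 miRNAs. The distance changed by -0.02 ± 0.43 (SE; exact permutation p = 1, two-sided), and single KO and WT samples differed by -1.07 to 0.86. The sign of this change turned without KO replicate 1 (0.19), KO replicate 3 (0.05) or WT replicate 2 (0.29).

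The falls of miR-223 and miR-142-3p lay at the median of all assays tested in both pools. Of the 282 assays tested, 37.2% fell and 0.355% rose in KO (limma, adjusted p under 0.05), and the median difference was -1.91, beside -1.91 for miR-223, -1.89 for miR-142-3p and -1.44 for miR-142-5p. That median depends on the set: it was -2.03 over the 179 tested assays of pool A and -1.82 over the 201 detected in all 6 samples. More negative differences were found in 141, 143 and 182 assays for miR-223, miR-142-3p and miR-142-5p. In 59.9% of tested assays every KO sample lay below every WT sample, as in all 3 of these miRNAs, and in 1.06% every KO sample lay above. Relative to the global mean, the mean Ct per pool of miRNAs detected in all 6 samples, miR-223 differed by -0.02 (95% interval -1.17 to 1.12), miR-142-3p by -0.0015 (-1.14 to 1.14) and miR-142-5p by 0.45 (-0.99 to 1.89). These differences from the common shift did not pass (limma, adjusted p = 0.982, 0.998 and 0.77), and 0.709% of tested assays were lower by that measure. Of the adjusted p values of all tested assays 101 lay between 0.03 and 0.05, and the number that fell, 105 in all 6 samples, was 3 without KO replicate 2 and 2 without any 1 WT sample.

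**Figure D2:**
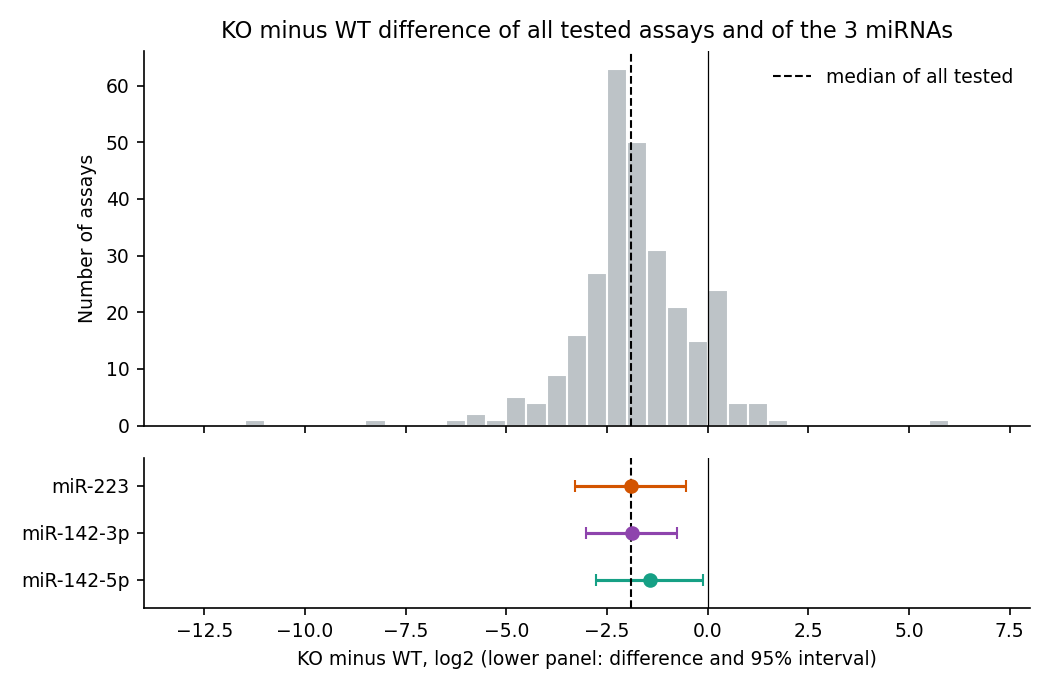
Number of tested assays (y axis) by KO minus WT difference (x axis, log2) in the upper panel, and the differences of miR-223, miR-142-3p and miR-142-5p with 95% intervals in the lower panel; the dashed line is the median of the 282 tested assays. The intervals of all 3 miRNAs hold the median of -1.91, and their upper ends lie below 0, at -0.53, -0.76 and -0.11. They are not adjusted for the number of assays, and after adjustment miR-142-5p did not pass (limma, adjusted p = 0.0735).

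Sample by sample, the place of these miRNAs beside the panel depended on which WT value each KO sample was set against. Against the WT mean, the median over all tested assays was -2.29, -1.65 and -1.42 in KO replicates 1, 2 and 3. miR-223 was at -2.23, -1.26 and -2.24 in the same samples, miR-142-3p at -1.78, -1.80 and -2.08, and miR-142-5p at -1.06, -1.50 and -1.76. In that reading both miR-142 strands were lowest in KO replicate 3, where the panel median was nearest to 0. Against the WT sample of the same number, the median was -2.57, -1.71 and -1.29 for numbers 1, 2 and 3, and miR-223 was at -2.17, -1.89 and -1.67, in the same order. miR-142-3p was then at -2.04, -1.82 and -1.81, and miR-142-5p at -1.81, -1.24 and -1.26. Both strands thus had their largest difference in number 1, as the panel did, and all 3 miRNAs spanned a narrower range than the panel median.

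**Figure D3:**
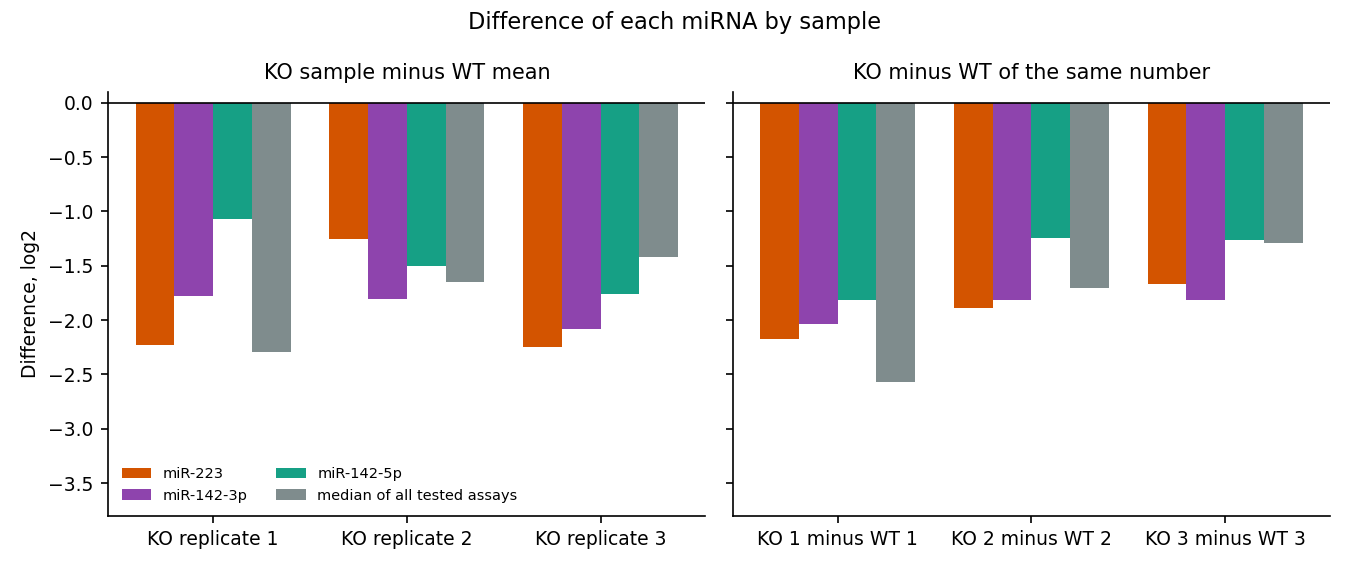
Difference (y axis, log2) of miR-223, miR-142-3p and miR-142-5p and of the median over all tested assays (grey), for each KO sample minus the WT mean (left panel) and minus the WT sample of the same number (right panel). On the left both miR-142 strands are lowest in KO replicate 3 (-2.08 and -1.76), and on the right all 3 miRNAs are lowest in number 1 (-2.17, -2.04 and -1.81).

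miR-223 stood near the top of the abundance order of WT macrophages. In KO it was in place 9 of the 206 assays detected in all 3 KO samples, and in place 2 of its pool. In WT, where 277 assays were detected in all 3 samples, it was in place 6, and in place 1 of the 177 in its pool. KO and WT places are thus counted over different sets of assays. In KO replicates 1, 2 and 3, 219, 277 and 290 assays were detected, against 307, 308 and 309 in WT replicates 1, 2 and 3. The order rests on Ct values of different assays and so on their unknown efficiencies. The 5 assays above miR-223 in WT all belonged to pool B, and the nearest 3 were miR-673, miR-2134 and miR-1904, at 5.26 ± 2.11, 5.96 ± 0.38 and 9.02 ± 1.32 (SD, n = 3). Just below came miR-24 at 4.40 ± 0.58, miR-1937c at 4.05 ± 1.25 and miR-19b at 3.31 ± 0.35. The WT ranges of miR-673, miR-24 and miR-1937c overlapped that of miR-223, and these were the only 3 of 276 that did, so its place among them is not settled. Between KO and WT, miR-24 was at -1.84 and miR-19b, encoded in the same cluster as miR-17, at -0.85. The pool B neighbours miR-1904, miR-2134, miR-673 and miR-1937c were at -0.66, -0.22, 0.86 and 0.72. None of these neighbours passed (limma, adjusted p 0.0748 to 0.8145), although miR-24 did with the replicate block (0.0431).

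miR-142-3p was in place 23 of 206 in KO and in place 18 of 277 in WT, or in place 12 of its pool in both groups. Its neighbours above were miR-590-5p, miR-191 and miR-146a, at 1.70 ± 1.43, 2.00 ± 0.48 and 2.11 ± 0.05 in WT, and below it miR-106a, miR-17 and miR-484, at 1.61 ± 0.53, 1.49 ± 0.49 and 1.43 ± 0.56 (SD, n = 3). Of these, only miR-146a, an inhibitor of Toll-like receptor signalling, had a WT range that did not overlap, and 11 of 276 assays overlapped in all. miR-484 also fell in KO (-2.24; limma, adjusted p = 0.0477), and with the replicate block miR-191 (0.0479), miR-106a (0.0464) and miR-17 (0.0431) passed too. miR-142-5p lay in the middle of the order, in place 109 of 206 in KO and in place 121 of 277 in WT, with 52 of 276 WT ranges overlapping its own. Its 6 neighbours, miR-706, miR-322 (pool B) and miR-18a above and miR-350, miR-28 and miR-423-5p below, were within 0.15 of it in WT, and all 6 overlapped it. Of them miR-18a (-2.08; limma, adjusted p = 0.0321), miR-28 (-2.30; 0.0428) and miR-423-5p (-2.07; 0.0368) fell, and the other 3 did not pass. The calls of miR-484, miR-18a, miR-28 and miR-423-5p were each lost without KO replicate 2 or any 1 WT sample (limma, adjusted p 0.0581 to 0.144), and those of miR-18a and miR-423-5p also without KO replicate 3 (0.0504 and 0.0579).

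**Figure D4:**
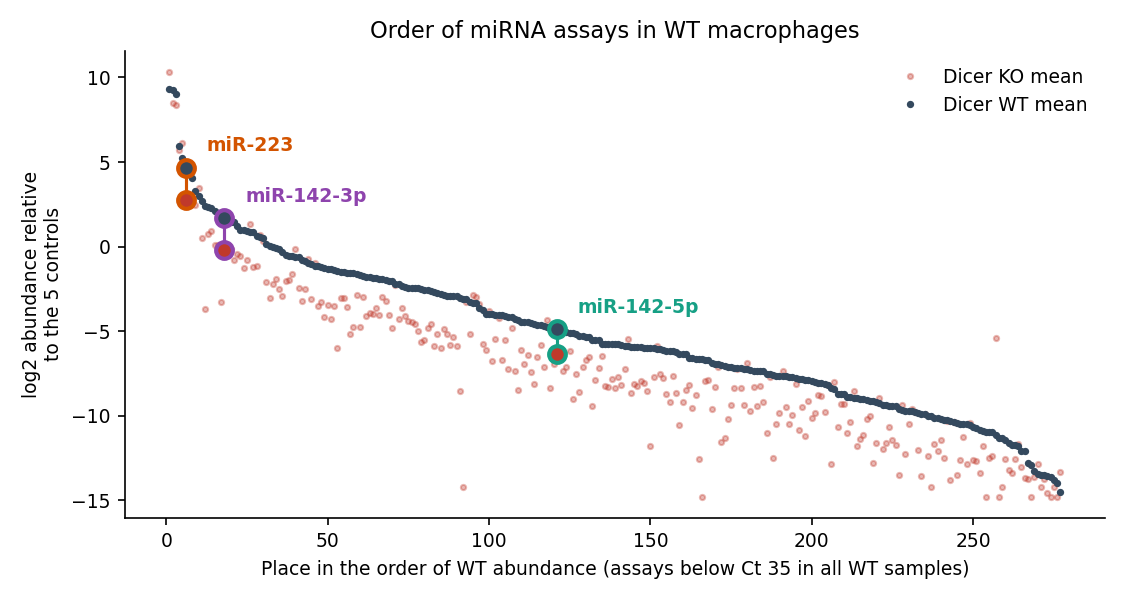
Mean log2 abundance relative to the controls (y axis) of the 277 assays detected in all WT samples, in the order of their WT mean (x axis), with KO means in red and WT means in dark. miR-223 is in place 6, miR-142-3p in place 18 and miR-142-5p in place 121, and the line from each falls by 1.91, 1.89 and 1.44.

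The profiles of the 3 miRNAs over the 6 samples were compared with those of the 200 other assays detected in all samples, by the Euclidean distance of values centred on each assay's mean. Nearest to miR-223 was miR-18a, at 0.62, followed by miR-674 (0.63), miR-7a (0.73), miR-181a (0.79) and miR-23b (0.85), against a median of 2.02 over all 200. Nearest to miR-142-3p were miR-148a (0.47), miR-23b (0.49), miR-100 (0.50), miR-547 (0.51) and miR-130b (0.55), against a median of 1.91; the name miR-100 stands on other values in the deposited ratios. For miR-142-5p miR-350 was nearest (0.46), before miR-125b-5p (0.52), miR-148a (0.76), miR-142-3p (0.88) and miR-23b (0.91), against a median of 2.37. The 3p strand was thus in place 4 for the 5p strand, while the 5p strand was in place 18 for the 3p strand. miR-223 and miR-142-3p were 1.05 apart, places 20 and 27 in each other's lists. All of these assays share the same 6 samples and controls, so the distances are a description.

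Of the other miRNAs that regulate myeloid or lymphoid cells, 25 names with 26 assays, 24 assays were tested. The miR-23a assay did not amplify in any sample, and miR-196b was not below Ct 35 in all samples of either group. In KO 10 fell (41.7%, beside 37.2% of all tested assays), 0 rose and 14 did not pass (limma, adjusted p under 0.05). With the replicate block 13 fell (beside 41.8%). All of the 24 but miR-322 (pool B) lay in pool A, whereas the shares set beside them are over both pools. All 24 differences were negative, beside 247 of the 282 tested, and ran from -3.55 to -1.19. Their median was -1.99, beside -1.91 over all tested assays and -2.03 over those of pool A. In 21 of 24 every KO sample lay below every WT sample, beside 59.9% of all tested assays. Most tested assays with a difference above 0 were in pool B, so these shares do not set the list apart from its own pool. Without KO replicate 2 or any 1 WT sample 0 of the 24 passed. The largest falls past the threshold were those of miR-342-5p, miR-99b and miR-342-3p. miR-342-5p, a strand of a miRNA of lymphocytes and macrophages, fell by at least 9.84-fold, since KO replicate 1 was at the ceiling (limma, adjusted p = 0.0312). miR-99b fell 9.13-fold (0.0487) and miR-342-3p 8.53-fold (0.0457, 0.0547 with the replicate block). The miR-99b call was lost on leaving out any 1 sample (limma, adjusted p 0.056 to 0.146), that of miR-342-3p on leaving out any but KO replicate 3 (up to 0.119; 0.0292 without that sample), and that of miR-342-5p without KO replicate 2 or any 1 WT sample (0.0605 to 0.108). The log2 differences ran from -4.03 (without KO replicate 2) to -2.25 (without KO replicate 1) for miR-99b, from -4.08 (without KO replicate 3) to -2.18 (without KO replicate 1) for miR-342-3p, and from -4.08 (without KO replicate 3) to -2.80 (without KO replicate 1) for miR-342-5p.

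Closest to 0 were miR-150 (-1.19), miR-125b-5p (-1.22) and miR-17 (-1.65; limma, adjusted p = 0.0686, 0.0431 with the replicate block). miR-150, a regulator of lymphocyte maturation, stood at -7.54, -8.87 and -7.22 in KO replicates 1, 2 and 3, against -4.88, -8.03 and -7.14 in WT replicates 1, 2 and 3, so that the groups overlapped (limma, adjusted p = 0.326). Its difference was -0.29 without WT replicate 1, -0.69 without KO replicate 2 and -1.86 without WT replicate 2, and that of miR-125b-5p was -0.79 without WT replicate 1. miR-155, a miRNA induced by inflammatory stimuli, was at -1.93 (0.155), and miR-146a at -1.98 (0.0985). Both passed without KO replicate 3, at -2.88 and -2.68 (limma, adjusted p = 0.044 and 0.0463), and were at -0.96 and -1.08 without KO replicate 1 (0.355 and 0.104). In WT 0 of the 24 stood above miR-223, 3 above miR-142-3p and 19 above miR-142-5p.

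**Figure D5:**
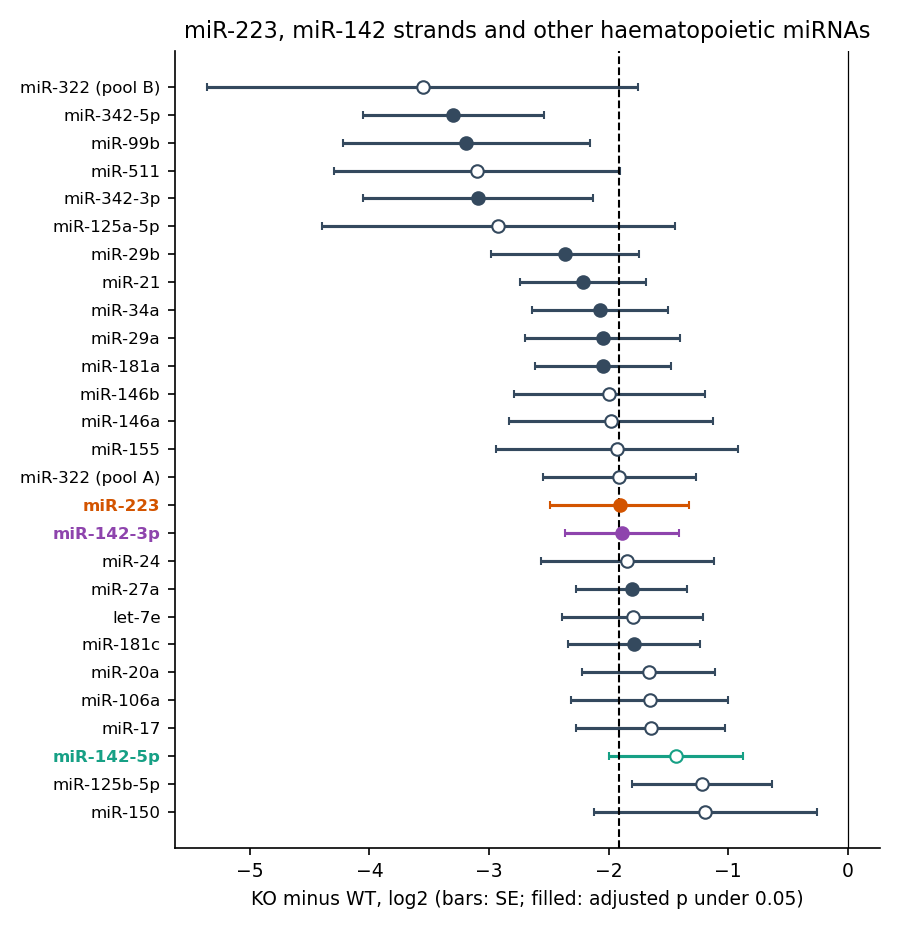
KO minus WT difference (x axis, log2) with its SE for miR-223, the miR-142 strands (coloured) and the 24 tested assays of other haematopoietic miRNAs, filled where the adjusted p is under 0.05 and open otherwise; the dashed line is the median of all tested assays. All points lie below 0, and among them only miR-150 and miR-125b-5p are nearer to 0 than miR-142-5p.

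Assays of miRNAs linked to other cell types were also read. They are miRNAs themselves, so in KO fewer of these cells and less miRNA per cell cannot be told apart. The sums therefore do not check the labelled cell type across the genotypes. Of the 2 assays present for 3 erythroid and megakaryocytic miRNAs, miR-486 did not amplify in any sample, and miR-451 had Ct values of 40, 33.0 and 33.5 in KO and 35.5, 34.6 and 40 in WT; their summed level was -13.7 to -11.2 in KO and -14.9 to -12.9 in WT. The summed lymphocyte level of miR-150, miR-181a and miR-181c was -5.07 to -3.97 in KO and -2.98 to -2.33 in WT. Its highest assay was miR-181a, with means of -4.89 in KO and -2.84 in WT, which is also on the list of myeloid or lymphoid regulators. The summed level of miR-223 and the miR-142 strands was 2.59 to 3.51 in KO and 4.28 to 5.39 in WT; these sums hold different assays and are compared between groups only. Of 7 stromal and endothelial assays 5 were detected in all KO and 6 in all WT samples. Their sum was -4.34 to -3.25 in KO and -6.31 to -0.68 in WT. Of them miR-143, miR-145, miR-199a-3p and miR-214 were lowest of all 6 samples in WT replicate 3. In contrast, miR-126-3p and miR-126-5p were lowest in KO replicate 1. The remaining assay, miR-199a-5p, did not amplify in KO replicates 2 and 3 and WT replicate 3. Epithelial miRNAs, 4 of 7 detected in all KO and 6 in all WT samples, summed to -5.45 to -4.22 in KO and -3.12 to -2.90 in WT, and miR-205 did not amplify. Among assays of liver, muscle and neural miRNAs, miR-1 and miR-122 did not amplify in any sample (the name miR-1 stands on other values in the deposited ratios), and the 5 summed to -11.1 to -9.70 in KO and -10.1 to -6.44 in WT. The highest of these sums was that of WT replicate 1, the only sample in which miR-124 amplified (Ct 28.0, against 40 in every other sample). The part of these cells in the falls of miR-223 and the miR-142 strands was not tested.

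In the authors' deposited table of relative quantities miR-223 was at 0.238, 0.437 and 0.21 in KO replicates 1, 2 and 3, against 0.997, 1.51 and 0.666 in WT replicates 1, 2 and 3. The authors' deposited table of fold changes gave KO over WT ratios of 0.279 for miR-223, 0.282 for miR-142-3p and 0.367 for miR-142-5p. These values use U6, snoRNA135 and snoRNA202 in place of the 5 controls and a ratio of arithmetic means.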

How the data were processed

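Per the labels, total RNA came from the mirVana kit, and its cDNA was made and pre-amplified with TaqMan reagents. The authors deposited a table of non-normalized Ct values, treated here as a score in cycles, and tables of relative quantities and fold ratios. Instrument software and its baseline settings: not given in the sources used here. Set against the Ct table, the deposited ratios matched Ct differences against U6, snoRNA135 and snoRNA202 within 0.01 log2 for 563 of 596 assays; in the other 33 the names of the tables disagree (miR-1, miR-21 and miR-100 among those used), so the Ct table was used.

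Log2 relative abundance is the mean Ct of the 5 controls of the same pool and sample minus the assay's Ct, with Ct from 35 up set to 35. The 282 assays below 35 in all 3 samples of at least 1 group were tested with limma 3.58.1 (R 4.3.3; two-sided moderated test), p values being adjusted by Benjamini-Hochberg across the 282 with a threshold of 0.05; the fit was tested on simulated data. Single contrasts between assays used exact permutation tests (scipy 1.17.1). Hairpins were folded with RNAfold 2.7.2. Same-numbered KO and WT samples deviated together (correlations over the tested assays 0.23, 0.28 and 0.27, unlike numbers -0.28 to 0.01), so the replicate number was also fitted as a block. Deviations from a group mean sum to 0, so the low values for unlike numbers partly follow from the others. The pairing comes from the data, since the labels state no shared batch. The block was thus chosen on the values it then tests, and calls gained with it are no independent support. There were 19 alternatives, 6 of which left out 1 sample.

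The miRNAs and lists were chosen with earlier results of these data known. Named assays are the 3 miRNAs, any other strand of their hairpins or assay of their seeds, for each the 3 neighbours on either side in the WT order and the 5 nearest profiles, and the 3 largest falls past the threshold and the 3 differences nearest 0 of the haematopoietic list, with miR-155, miR-146a and miR-150, the controls and the markers of other cells; others are said to be chosen after their values were seen. Ct precision rests on 3 samples a group, and no count or depth is defined.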

Additional observations from a re-analysis of the deposited data

How the results depend on the processing

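The log2 differences of miR-223, miR-142-3p and miR-142-5p were -1.91, -1.89 and -1.44 as reported. With the global mean as reference they were -0.022, -0.0015 and 0.45 (limma, adjusted p 0.982, 0.998 and 0.77), so the first and second lost the call and the third changed sign, since this reference removes the common shift. With no reference miR-223 was at -2.48 and miR-142-3p at -2.46 (0.256 each), and with every assay detected in at least 1 sample tested they were at -1.91 (0.0735) and -1.89 (0.0566). miR-223 also missed the threshold with U6 alone (-2.004; 0.0545) and in the deposited ratios (-1.84; 0.0514). miR-142-5p passed at -1.44 with the ceiling set after scaling (0.0466), with assays detected in all 6 samples only (0.0463) and with the replicate block (0.0483); the block changed no other call of the 3 miRNAs and gave 118 assays lower and 13 of the list. Leaving out 1 sample gave -2.24 to -1.59 for miR-223, -2.02 to -1.76 for miR-142-3p and -1.69 to -1.06 for miR-142-5p. It gave -0.70 to -0.31 for the 3p minus 5p contrast and -0.30 to 0.29 for miR-223 minus miR-142-3p.

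The count of lower assays, 105, was 2 with the global mean, 2 with no reference and 2 with the wider filter, and 2 to 112 on leaving out 1 sample. The count of higher assays, 1, was 2 with U6 alone, 0 with no reference, 2 with a ceiling of 32, and 1 to 2 on leaving out 1 sample. The median, -1.91, was -0.20 with the global mean, -2.45 with no reference, and -2.06 to -1.56 on leaving out 1 sample. The list count, 10 of 24 beside 105 of 282 over all tested assays, was 0 with the global mean, with no reference and with the wider filter. It was 5 without a ceiling, beside 87 of 282, and 4 in the deposited ratios, beside 79 over all tested assays. With assays detected in all 6 samples only it was 17, beside 114 of 201 over all. In that setting miR-342-5p and miR-322 (pool B) were not tested. Leaving out 1 sample gave 0 to 10, beside 2 to 112 over all. Signs turned with the global mean for miR-106a (0.23), miR-125b-5p (0.67), miR-148a (0.24), miR-150 (0.70), miR-17 (0.24), miR-19b (1.04), miR-2134 (0.42), miR-23b (0.0012), miR-24 (0.045), miR-350 (0.58) and miR-674 (0.038). They also turned for miR-100 in the deposited ratios (0.64), where its name differs between the tables, for miR-2134 and miR-590-5p without KO replicate 3, for miR-1904 without WT replicate 1 and for miR-673 without WT replicate 2. Leaving out 1 sample gave -0.57 to 0.44 for miR-2134, -8.19 to 1.21 for miR-590-5p, -1.56 to 0.10 for miR-1904 and -0.0147 to 2.03 for miR-673. Apart from the reference, the filter and the named samples, the cause was not tested.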
